A study of Rattus norvegicus with 31 samples.

Results

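The genes described here are the splicing factors and RNA-binding proteins measured in the CA3 region of the hippocampus of aged rats. A gene was taken if its annotation symbol started with Srsf, Hnrn, Sf3, Snrp, Prpf or Rbm followed by a digit or x, or was Cd2bp2 or Puf60. This gave 86 genes of the 9037 that had a probeset of their own, and they were read by 131 of the 16204 probesets. The genes comprised 9 Srsf, 17 Hnrn, 9 Sf3, 9 Snrp, 11 Prpf and 29 Rbm symbols besides Cd2bp2 and Puf60. The array measured 58 of them with 1 probeset and 28 with several, up to 5. Another 11 probesets matched the rule in part but were annotated to several genes, and 0 of them passed in any AU against AI comparison. RefSeq lists 118 protein-coding rat genes with such symbols, of which 85 had a probeset of their own here, and the remaining gene measured is annotated as a pseudogene. The deposited values cover only part of the array's probesets, so a gene without one here may still be on the array. Some, such as Srsf3 and Hnrnpk, had only probesets annotated to several genes. Shares of the array below are shares of the deposited probesets or their genes.

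All 31 rats were aged, outbred male Long-Evans rats of 24 to 26 months that had been trained beforehand in a water maze, and no genotype or drug distinguished them. Aged unimpaired (AU) rats had learned the hidden platform within the range of young rats, whereas aged impaired (AI) rats had learned worse than young rats. Each rat then had 1 session of 8 trials in another maze, either spatial (S, visible platform in a fixed place among cues) or non-spatial (NS, visible platform moved and cues removed), and was killed for dissection some 2 hours from the start of the task. The groups held 8 AU-S, 8 AU-NS, 8 AI-S and 7 AI-NS rats, and AU-act (16) and AI-act (15) denote both tasks pooled within a phenotype. CA3 was cut out by hand and joined over both hemispheres of a rat, so each array read 1 rat and a mixture of the cells in that tissue. Because the tissue is a mixture, fewer cells of a type and less RNA per cell cannot be told apart.

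Splicing removes introns from newly made RNA and joins the exons. The work is done by the spliceosome, which is built from small nuclear ribonucleoproteins (snRNPs). Snrp genes encode some of their proteins, both of the core and of single particles. Other parts are the SF3 complexes of the U2 snRNP that settle on the branch point, and the PRPF proteins of the U1, U4/U6 and U5 particles. SR proteins (Srsf) mostly help exons to be recognised, while hnRNPs (Hnrn) coat the RNA, often oppose the SR proteins and also carry RNA out of the nucleus and along dendrites. In neurons these families set which versions of channels, receptors and synaptic proteins are made.

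Before the levels, the stretch in front of the start of each gene was read for what the genes shared beyond their names. Of the 86 genes, 79 had a promoter in RefSeq (build GRCr8), and the 250 bases before the start were searched on both strands. Overlap with annotated genes was read for the genes named below. Most of their windows, among them those of Cd2bp2, Srsf1 and Srsf10, overlapped the annotated span of the gene itself. Those of Hnrnpab, Rbm17, Rbm18 and Rbm4b overlapped another annotated gene. The shares below thus mix upstream and genic sequence. The letters CCGGAA, the core bound by ETS factors, were present in 36 of the 79 windows (45.6%), and in 3022 of 19005 windows of protein-coding genes (15.9%). The CCAAT box (CCAAT) was found in 48.1% against 35.5%, the GC box (GGGCGG) in 50.6% against 40.3% and the TATA box (TATAAA) in 7.60% against 12.3%. The YY1 letters AAGATGGC stood in 3.80% against 1.71%, the NRF1 letters GCGCATGC in 3.80% against 2.95% and the CRE TGACGTCA in 1.27% against 2.03%. These windows were also richer in G and C, with a median of 58.4% against 54.8%, and in CpG dinucleotides, with a median of 19 against 9. A match is only a run of letters. The 79 genes were all measured in this tissue, while the 19005 include genes with no probeset here. The measured genes alone were not searched for comparison. Windows of 2 genes named below are shown because they carry ETS letters and overlap no annotated gene. That of Hnrnpa2b1 is chr4:81875887-81876136 on the minus strand, with ETS and CCAAT letters in capitals, and that of Sf3b6 is chr6:33545245-33545494 on the plus strand, with GC box and ETS letters in capitals. Letters that match on the other strand appear as their reverse complement.
Hnrnpa2b1: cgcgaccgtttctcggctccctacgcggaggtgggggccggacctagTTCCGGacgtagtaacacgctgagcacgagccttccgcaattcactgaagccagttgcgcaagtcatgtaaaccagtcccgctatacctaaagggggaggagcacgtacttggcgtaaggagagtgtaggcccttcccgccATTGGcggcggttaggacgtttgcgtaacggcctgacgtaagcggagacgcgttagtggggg
Sf3b6: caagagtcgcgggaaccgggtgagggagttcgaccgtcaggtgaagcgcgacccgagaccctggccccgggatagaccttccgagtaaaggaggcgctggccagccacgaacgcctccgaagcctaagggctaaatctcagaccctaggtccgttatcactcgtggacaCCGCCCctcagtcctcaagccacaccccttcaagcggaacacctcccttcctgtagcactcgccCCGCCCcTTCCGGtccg

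Signal was given on the log2 scale after gcRMA, and differences below are in log2 units. A probeset was called when its adjusted p from limma, corrected over all 16204 probesets, was under 0.1 within a task or phenotype, or under 0.05 with the tasks pooled. Of a gene's probesets, the one with the highest mean over the arrays is called the brightest. The 31 arrays had medians between 8.97 and 9.14, and their mean correlation with the others ran from 0.981 to 0.989, so none stood apart. CA3 markers were present at 7 of 8 genes, neuron markers at 6 of 6 and markers of glia and of neighbouring hippocampal fields were also measured. The neuron marker score was 13.72 in AU-act (13.67 to 13.78) and 13.63 in AI-act (13.49 to 13.72), and 1 of 6 neuron markers was called. The CA3 score was 11.02 in AU-act (10.77 to 11.28) and 10.87 in AI-act (10.52 to 11.06), and 0 of 7 measured CA3 markers were called. The gap between 3′ and 5′ probesets of the controls Gapdh and beta-actin, a sign of RNA integrity, was 1.45 ± 0.10 in AU-act (SD, n = 16) and 1.59 ± 0.13 in AI-act (SD, n = 15), so RNA quality moved with phenotype. The gap was 1.48 in AU-S and 1.59 in AI-S, and 1.42 in AU-NS and 1.60 in AI-NS. Of the other marker lists, for dentate granule cells, CA1, oligodendrocytes, astrocytes, microglia and vessels, 0 measured genes were called.

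To ask whether splicing genes differed by cognitive phenotype across both tasks, AU-act was compared with AI-act. At the brightest probeset, 2 of 86 genes were higher and 0 lower, while 2.05% of all genes were higher and 0.31% lower. There 19 of 86 (22.1%) had an unadjusted p under 0.05, 14 of them higher, as against 14.0% of all genes. At any probeset, 7 of 86 were higher and 0 lower (8.14%), while 6.89% of all genes were higher and 0.443% lower. A gene with several probesets has more chances to pass, and of the 28 such genes here 6 were higher, which is 21.4%, against 21.4% of the 2394 genes of this kind on the array. The share of splicing genes called was thus near that of the array at large. The 7 genes were Cd2bp2, Rbm18, Srsf10, Rbm17, Hnrnpa2b1, Srsf1 and Hnrnpab. With the control gap as a covariate 0 of the 7 passed, with adjusted p from 0.146 to 0.486, while the array as a whole went from 810 higher and 83 lower probesets to 1 higher and 0 lower. The part of RNA quality in these calls was not tested otherwise.

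Cd2bp2 encodes a protein of the U5 snRNP that is released before the tri-snRNP becomes active. At the probeset 1385676_at its signal was 8.14 at the lowest, 8.69 at the median and 9.07 at the highest in AU-act, and 7.86, 8.20 and 8.45 in AI-act. Of 16 AU-act rats, 13 lay above the highest AI-act rat, although the groups overlapped at their edges. The difference was 0.47 (SE 0.08, n = 16 and 15, limma adjusted p = 0.00158), a 1.39-fold higher signal. It remained called without any 1 of the 31 arrays, at 0.44 to 0.51, and was 0.42 with the control gap as a covariate (limma adjusted p = 0.146). The other probeset, 1372036_at, is the brightest of the gene and did not follow. It ran from 11.53 to 11.89 in AU-act and from 11.55 to 11.83 in AI-act, a difference of 0.03 (SE 0.04, limma adjusted p = 0.683). The increase was thus measured by 1 of the 2 probesets of Cd2bp2.

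Among the numbered RNA-binding motif genes, Rbm18 and Rbm17 were called at probesets that were not their brightest. Rbm18 carries an RNA recognition motif. At 1393569_at it ranged from 9.20 through a median of 9.41 to 9.67 in AU-act and from 8.82 through 9.19 to 9.33 in AI-act. All 16 AU-act rats lay above the AI-act mean and 13 above the highest AI-act rat. The difference was 0.25 (SE 0.05, limma adjusted p = 0.00256), against -0.01 (SE 0.03) at its brightest probeset. Rbm17, also known as SPF45, takes part in the choice of 3′ splice sites. Its probeset 1396185_at was dim, from 6.18 through 6.53 to 6.90 in AU-act and from 5.84 through 6.21 to 6.52 in AI-act, and 8 AU-act rats exceeded every AI-act rat. The difference was 0.24 (SE 0.07, limma adjusted p = 0.0229), and the other probesets gave 0.01 (SE 0.05) and -0.12 (SE 0.09). Both calls remained without any 1 array. With the control gap as a covariate the differences were 0.16 for Rbm18 and 0.19 for Rbm17. Of the 29 Rbm genes, 17 had a positive difference at the brightest probeset, with a median of 0.011, and the median of all genes was 0.0032. None of the 29 passed there and 2 passed at any probeset (6.90%, against 6.89% of all genes higher). At the brightest probesets the smallest unadjusted p values belonged to Rbm10, a regulator of exon skipping, at 0.14 (SE 0.05), Rbm11, a regulator found mainly in brain and testis, at -0.20 (SE 0.08), and Rbm33 at 0.09 (SE 0.04), with limma adjusted p of 0.115, 0.167 and 0.193. Rbm10 ran from 9.33 to 9.93 in AU-act and from 9.06 to 9.65 in AI-act, and Rbm11 from 6.79 to 7.55 in AU-act and from 6.84 to 7.63 in AI-act, so both pairs of groups overlapped over most of their range.

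Of the 9 Srsf genes, which include the pseudogene Srsf7-ps4, 1 was called at the brightest probeset, where 2.05% of all genes were higher. At any probeset 2 were called, where 6.89% of all genes were higher. Both have several probesets, and 21.4% of all such genes were higher. Srsf1, the first SR protein to be described and an activator of exon inclusion, was called at its brightest probeset, 1371581_at. It ran from 12.13 through 12.29 to 12.49 in AU-act and from 12.10 through 12.19 to 12.28 in AI-act, and 9 AU-act rats lay above every AI-act rat. The difference was small at 0.10 (SE 0.03, limma adjusted p = 0.0353), a 1.07-fold higher signal, and it did not pass after centring (0.09, limma adjusted p = 0.0931) or quantile normalization (0.07, limma adjusted p = 0.210). It was 0.09 to 0.11 with any 1 array left out and no longer passed without AI-NS 1, AI-NS 8, AU-NS 1, AU-NS 2, AI-S 3, AI-S 6, AU-S 3, AU-S 4 or AU-S 5. The other Srsf1 probeset gave 0.06 (SE 0.04). Srsf10, an SR-like protein that can repress splicing, was called at 1393946_at. Its signal ran from 7.74 through 7.99 to 8.15 in AU-act and from 7.27 through 7.75 to 8.07 in AI-act, where AI-NS 8 was the lowest of all rats. The difference was 0.22 (SE 0.06, limma adjusted p = 0.0206), with 0.12 (SE 0.06, limma adjusted p = 0.274) at its brightest probeset. Leaving out any 1 array kept it called, at 0.19 to 0.24. Srsf11, a coactivator of small neuronal exons, had -0.06 (SE 0.04, limma adjusted p = 0.503). Over the 9 Srsf genes the median difference was 0.010, with 5 positive, and under quantile normalization it was -0.017 with 2 positive.

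The Hnrn genes had the highest median of the 6 families, 0.085, with 13 of 17 positive and 8 at an unadjusted p under 0.05, all higher in AU-act. Among all 9037 genes 4670 had a positive difference. An unadjusted p under 0.05 was found for 1263 of the 9037, and 851 of those were higher. After centring each array on its median the Hnrn median was 0.072, after quantile normalization 0.055 and with the control gap as a covariate 0.069. The 17 genes were read in the same rats and are not separate observations. Hnrnpab, which binds A-rich RNA and takes part in carrying RNA to dendrites, was called at its brightest probeset. It ran from 11.28 through 11.60 to 12.06 in AU-act and from 11.06 through 11.43 to 11.74 in AI-act, and 15 of 16 AU-act rats lay above the AI-act mean. The difference was 0.22 (SE 0.07, limma adjusted p = 0.0488), and it did not pass after centring (0.20, limma adjusted p = 0.0737) or quantile normalization (0.19, limma adjusted p = 0.105). This call lay at the threshold: it remained only without AU-NS 1, AU-NS 6, AU-NS 7, AI-S 1, AI-S 2, AI-S 7, AU-S 2 or AU-S 7, and was lost without any 1 of the other 23 arrays, with differences of 0.19 to 0.24. Hnrnpa2b1, which recognises trafficking signals in RNAs bound for dendrites and whose promoter window is given above, was called at 1395561_at. Its signal ran from 9.98 through 10.48 to 10.87 in AU-act and from 9.85 through 10.17 to 10.61 in AI-act. The difference was 0.27 (SE 0.08, limma adjusted p = 0.0271), and the call was lost without AI-NS 8 or AU-NS 2, with values of 0.25 to 0.31 over all arrays left out in turn. Its brightest probeset gave 0.08 (SE 0.05) and the remaining pair 0.01 (SE 0.05) and -0.03 (SE 0.07). Hnrnpa3, a close relative, had 5 probesets and every one was positive, from 0.06 to 0.17, with 0.11 (SE 0.04, limma adjusted p = 0.0641) at the brightest. Hnrnpm had 0.13 (SE 0.05, limma adjusted p = 0.166).

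**Figure D1:**
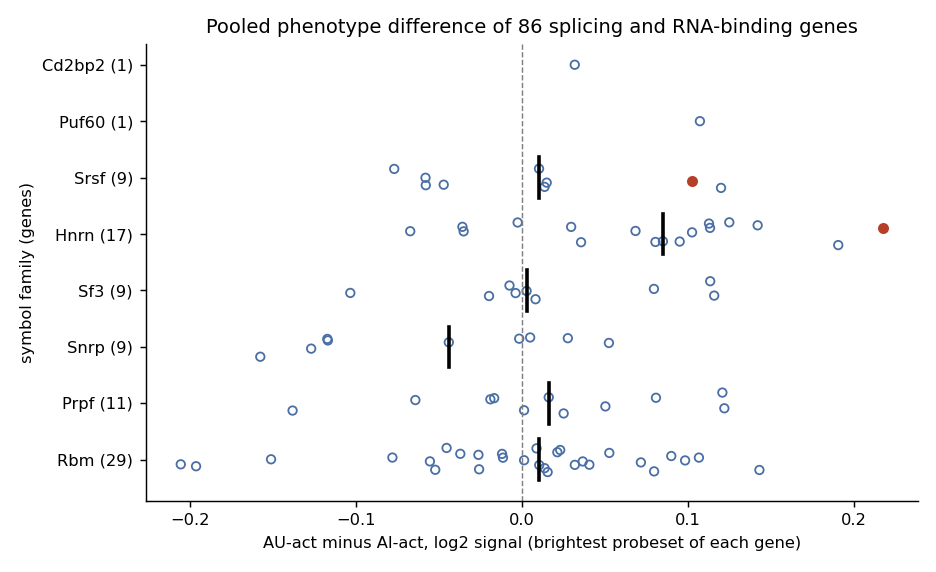
Difference between AU-act (n = 16) and AI-act (n = 15) in log2 signal (x axis) at the brightest probeset of each of the 86 genes, one circle per gene, by symbol family (y axis, number of genes in brackets). Vertical bars mark family medians and filled circles the genes called by limma: 2 points are filled, Srsf1 and Hnrnpab, the Hnrn median lies at 0.085 and the Snrp median at -0.044.

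The Snrp genes stood at the other end of the families. Of 9 Snrp genes 3 had a positive difference, the median was -0.044, and 2 had an unadjusted p under 0.05, both lower in AU-act. The median was -0.057 after centring, -0.055 after quantile normalization and -0.12 with the control gap as a covariate, where 1 of 9 was positive. None passed. Snrpe, a protein of the Sm ring around the snRNA, ran from 10.90 through 11.30 to 11.60 in AU-act and from 11.21 through 11.43 to 11.81 in AI-act, a difference of -0.16 (SE 0.07, limma adjusted p = 0.185). Snrpd1, another Sm ring protein, had -0.13 (SE 0.06, limma adjusted p = 0.241), and 7 AU-act rats lay below every AI-act rat. Snrpb2, a protein of the U2 snRNP, had -0.12 (SE 0.07, limma adjusted p = 0.340).

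The subunits of SF3b, which clamps the U2 snRNP to the branch point, went both ways and none passed. Sf3b2 had 0.12 (SE 0.04, limma adjusted p = 0.118) at its brightest probeset and 0.10 (SE 0.05) at the other, and Sf3b3 had 0.11 (SE 0.06). Sf3b6, the subunit that touches the branch point adenosine, had -0.10 (SE 0.06), and ran from 10.39 to 11.18 in AU-act and from 10.73 to 11.11 in AI-act. The median of the 9 Sf3 genes was 0.0029. Among 11 Prpf genes the median was 0.016. Prpf39, a partner of the U1 snRNP, had the smallest p of the family at the brightest probeset and ran from 11.08 through 11.30 to 11.63 in AU-act and from 11.27 through 11.43 to 11.73 in AI-act. Its difference was -0.14 (SE 0.05, limma adjusted p = 0.0790), and after quantile normalization -0.17, which passed (limma adjusted p = 0.0403). Prpf4b, a kinase of the spliceosome chosen after its values were seen, came nearer at a probeset other than its brightest, at 1382646_at, with 0.17 (SE 0.05, limma adjusted p = 0.0548). Prpf40b, also a U1 partner, had 0.12 (SE 0.06, limma adjusted p = 0.241) and Prpf38b had 0.12 (SE 0.06, limma adjusted p = 0.282). Puf60, which helps the U2 auxiliary factor at weak 3′ splice sites, ran from 10.83 through 11.09 to 11.35 in AU-act and from 10.58 through 11.04 to 11.13 in AI-act. Of 16 AU-act rats, 7 exceeded every AI-act rat, and the difference was 0.11 (SE 0.05, limma adjusted p = 0.242).

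**Figure D2:**
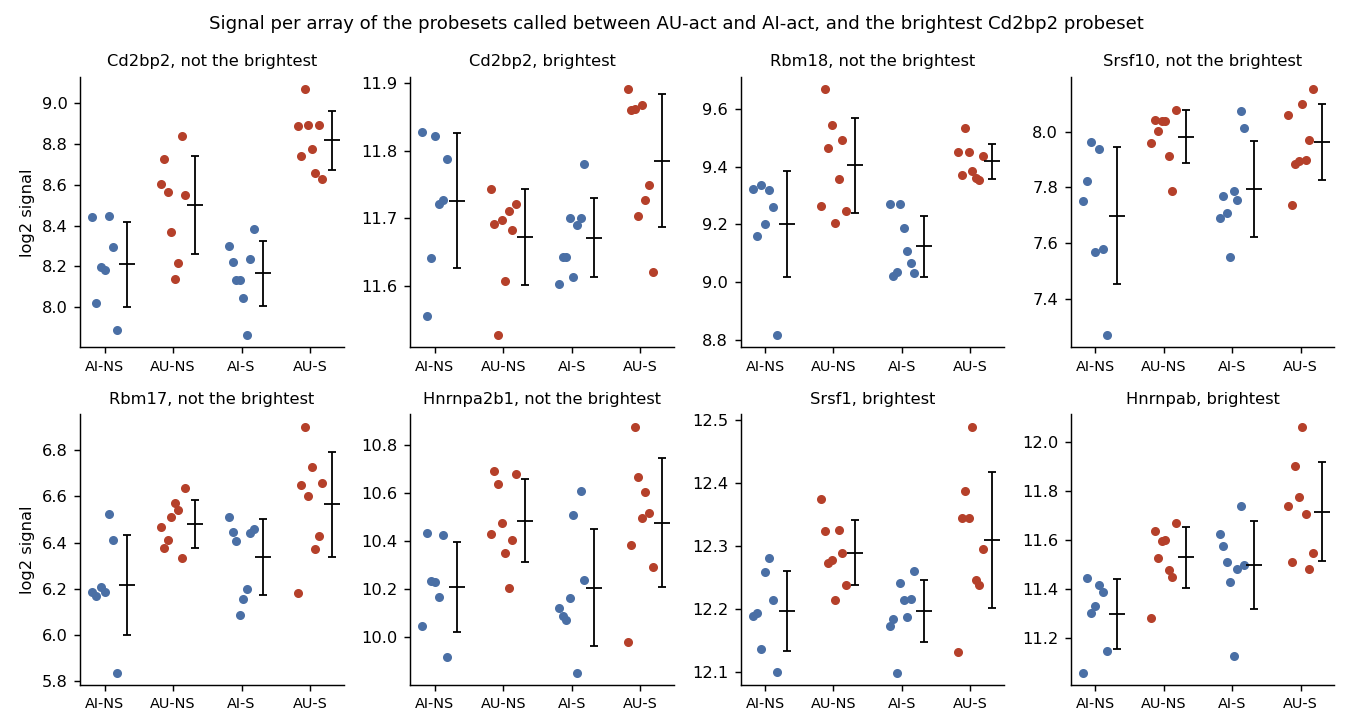
Log2 signal (y axes, cut to the range of each probeset) of every rat in AI-NS (n = 7), AU-NS, AI-S and AU-S (n = 8 each) for the 7 probesets that passed with the tasks pooled and for the brightest Cd2bp2 probeset; points are rats, and bars are means ± SD. At 1385676_at of Cd2bp2 the AU-S rats (8.63 to 9.07) lie above all AI-S rats (7.86 to 8.38). The share of all probesets separated in this way was not counted. At the brightest Cd2bp2 probeset the groups overlap.

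The probesets of a gene often parted. In the 28 genes with several, 26 of the 45 other probesets had the same sign as the brightest one. Of these 45, 5 were called (11.1%), and of the 28 brightest 1 was called (3.57%). Over all genes with several probesets, 17.2% of the other and 3.22% of the brightest probesets were called. The median difference of the other probesets was 0.025, against 0.073 over all genes. Prpf18, a factor of the second splicing step, had the largest difference among the probesets shown without a call, at 0.49 (SE 0.16, limma adjusted p = 0.0755) and chosen after its values were seen, against -0.02 (SE 0.04) at its brightest. Probesets of a gene can lie in different exons or ends of the transcript, and the files do not say which transcripts each reads.

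**Figure D3:**
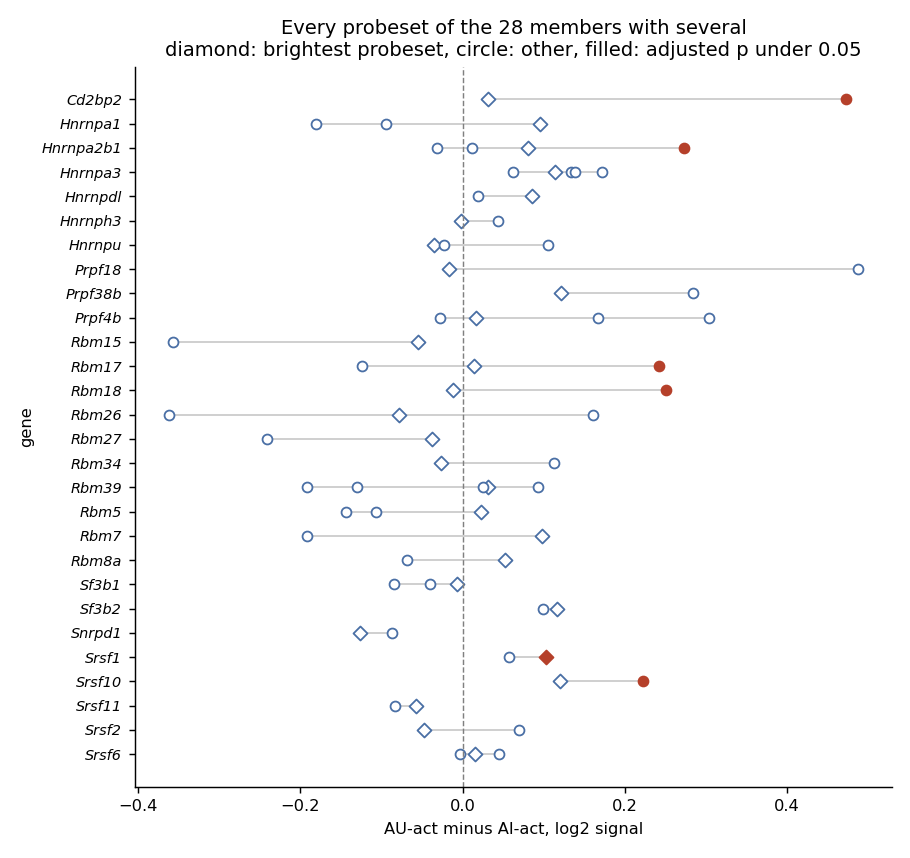
AU-act minus AI-act difference in log2 signal (x axis) at every probeset of the 28 genes measured by several (y axis), with diamonds for the brightest probeset, circles for others and filled marks for probesets called by limma. Of 6 filled marks 1 is a diamond, Srsf1, and the filled circle of Cd2bp2 at 0.47 stands far from its diamond at 0.03.

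The differences were small. At the brightest probeset all 86 differences were within 1.2-fold in either direction, and for 77 of the 86 the whole 95% confidence interval was within it. The standard error had a median of 0.052. Over the 131 probesets, 124 differences and 99 intervals lay within 1.2-fold.

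The spatial task was then taken alone. Between AU-S and AI-S, 0 of 86 genes were called at the brightest probeset, where 0.0775% of all genes were higher and 0.0111% lower. There 11 of 86 (12.8%) had an unadjusted p under 0.05, 7 of them higher, as against 8.83% of all genes. At any probeset 2 were higher and 0 lower, which is 2.33% of the genes, while 0.598% of all genes were higher and 0.0332% lower. Both belong to the 28 genes with several probesets (7.14%), of which kind 2.01% were higher on the whole array. The probesets described next are the 2 that passed, and the share of all probesets without overlap between groups was not counted. Cd2bp2 at 1385676_at ran from 8.63 through 8.83 to 9.07 in AU-S and from 7.86 through 8.18 to 8.38 in AI-S, with no overlap between the groups. The difference was 0.65 (SE 0.08, n = 8 per group, limma adjusted p = 0.00249), 1.57-fold, and it held without any 1 of the 16 arrays at 0.61 to 0.68. Its brightest probeset gave 0.11 (SE 0.05, limma adjusted p = 0.369). Rbm18 at 1393569_at ran from 9.35 through 9.41 to 9.53 in AU-S and from 9.02 through 9.09 to 9.27 in AI-S, again with no overlap. The difference was 0.29 (SE 0.05, limma adjusted p = 0.0476), and it no longer passed without AI-S 3, AI-S 6, AI-S 8, AU-S 3, AU-S 4 or AU-S 5, at 0.28 to 0.32 over all arrays left out in turn, nor after centring on array medians (0.28, limma adjusted p = 0.110). The dentate granule marker score, on 3 of 6 markers measured, was 10.03 in AU-S (9.78 to 10.44) and 10.37 in AI-S (9.82 to 10.77), with 0 of 3 markers called. With dentate and CA1 scores as covariates the differences were 0.63 for Cd2bp2 (limma adjusted p = 0.105) and 0.28 for Rbm18 (limma adjusted p = 0.403). With the control gap as a covariate Cd2bp2 still passed and Rbm18 did not (limma adjusted p = 0.197). Over the 86 genes 57 were positive (66.3%, against 51.5% of all genes) with a median of 0.035, while the median of all genes was 0.0037. The share of the 86 was 61.6% after centring and 58.1% after quantile normalization. These genes were read in the same 16 rats and are not separate observations. By family, the Hnrn median was 0.069 with 14 of 17 positive and the Snrp median was -0.090 with 3 of 9 positive.

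The same question was asked of the rats trained without spatial cues. Between AU-NS and AI-NS 0 genes were called by limma, as were 0% of all probesets, and 8 of the 86 genes had an unadjusted p under 0.05, 7 of them higher, as against 635 of all 9037 genes. SAM, a permutation-based test used as an alternative, called 270 probesets higher and 28 lower on the whole array, and 1 splicing gene, Rbm10. Among the splicing genes, 42 of 86 were positive (48.8%, against 52.5% of all genes) and the median was -0.0032. Rbm4b, a splicing regulator, ran from 5.97 through 6.43 to 6.69 in AU-NS and from 6.45 through 6.75 to 6.94 in AI-NS, a difference of -0.38 (SE 0.11, limma adjusted p = 0.229). Hnrnpab had 0.23 (SE 0.07, limma adjusted p = 0.233), with 7 of 8 AU-NS rats above every AI-NS rat. Rbm10 had 0.17 (SE 0.05). Cd2bp2 at 1385676_at had 0.29 (SE 0.11, limma adjusted p = 0.344), from 8.14 to 8.84 in AU-NS and from 7.89 to 8.45 in AI-NS, and at its brightest probeset -0.05 (SE 0.05). The Hnrn median was 0.079 with 12 of 17 positive, and the Snrp median was 0.00041 with 5 of 9 positive, so the negative Snrp median of the spatial task was not seen here; this difference between tasks was not tested.

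Whether phenotype differences depended on the task was tested by the interaction of phenotype and task. It called 0 splicing genes and 0% of all probesets. An unadjusted p under 0.05 was found for 5 of 86 genes (5.81%), as against 226 of all genes (2.50%). The 3 smallest unadjusted p values were those of Cd2bp2 at 1385676_at, with a spatial minus non-spatial difference of 0.36 (SE 0.14), Rbm17 at its brightest probeset with 0.19 (SE 0.08) and Rbm4b with 0.35 (SE 0.16), each with a limma adjusted p of 1.00. The 95% confidence interval for Cd2bp2 ran from 0.08 to 0.64. The larger value of Cd2bp2 after the spatial task thus did not pass.

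**Figure D4:**
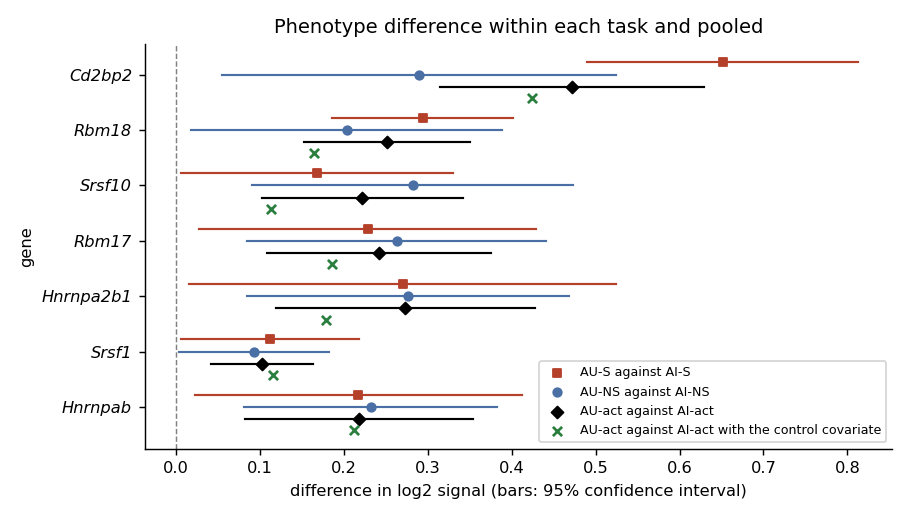
Difference in log2 signal between phenotypes (x axis) for the 7 called genes (y axis) after the spatial task (squares), after the non-spatial task (circles) and pooled (diamonds), with bars for 95% confidence intervals, and crosses for the pooled value with the control covariate. These genes were chosen by their pooled call; all intervals lie above 0, those of the tasks overlap for each gene, and the cross of Cd2bp2 at 0.42 is the farthest right.

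Task itself was compared within each phenotype. Between AI-S and AI-NS 0 genes and 0% of all probesets were called, and 3 of 86 (3.49%) had an unadjusted p under 0.05, as against 399 of all 9037 genes (4.42%). The smallest were Sf3b1, the largest SF3b subunit, at 1382691_at with -0.27 (SE 0.11), Hnrnpab with 0.20 (SE 0.08) and Sf3b6 with 0.15, each with a limma adjusted p of 0.862. Between AU-S and AU-NS 0 genes and 0% of all probesets were called, and 10 of 86 (11.6%) had an unadjusted p under 0.05, 7 of them higher after the spatial task, as against 729 of all 9037 genes (8.07%). Here Rbm17 at its brightest probeset had 0.20 (SE 0.06), Cd2bp2 at 1385676_at had 0.32 (SE 0.10) and Rbm4b had 0.40 (SE 0.12), each with a limma adjusted p of 0.605. All 8 AU-S rats lay above the AU-NS mean at that Cd2bp2 probeset. SAM called 0 splicing genes in both comparisons.

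Other genes of the splicing machinery, from a list of 147 of which 129 were measured, were read for comparison. With the tasks pooled, 1 was higher and 0 lower at the brightest probeset, which is 0.775% higher against 2.05% of all genes. At any probeset 8 were higher (6.20%, against 6.89% of all genes) and 1 lower, and the median difference was 0.0060. Ddx17, a DEAD-box RNA helicase, was called at both of its probesets, at 0.24 (SE 0.06, limma adjusted p = 0.0129) and 0.42 (SE 0.09, limma adjusted p = 0.00683). At the brightest it was 0.16 with the control gap as a covariate (limma adjusted p = 0.350). Fubp1, which binds single-stranded nucleic acid, had 0.14 (SE 0.05), the signal-responsive splicing regulator Khdrbs1 (Sam68) -0.11 (SE 0.04), Strap of the SMN complex 0.09 (SE 0.04) and Lsm5 of the Lsm ring -0.21 (SE 0.08), with limma adjusted p of 0.0702, 0.0915, 0.137 and 0.145. The 1 gene lower at any probeset was Son, a large SR-related cofactor, at -0.35 (SE 0.08) and 1 of its 5 probesets. None of the 32 genes of the tri-snRNP and catalytic complex was called, with a median of 0.040, nor any of the 12 genes of the U2 auxiliary factor and branch point, with 0.058. The 17 genes of snRNP assembly and the Lsm rings had a median of -0.043 with 4 positive, and 0 were called.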

How the data were processed

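RNA from CA3 of 31 rats was read on Affymetrix rat whole-genome arrays, 1 array per rat, so replicates were separate animals. Deposited values were log2 signals that the authors made with gcRMA (background correction, quantile normalization and summary per probeset; version not given in the sources used here), after leaving out 1 array. Their limit of 4 on the log2 mean removed 0 of the deposited probesets, whose lowest mean was 5.00. All 131 probesets of the members were thus tested. Arrays give no counts, and their number limits the precision. Probesets were tied to genes by the platform's annotation, which can be old: 12242 probesets had 1 gene, 293 several and 3669 none. For probesets with 1 gene, the symbol was replaced by that of RefSeq for the same gene identifier, where RefSeq held it.

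Groups were taken from the sample titles. Comparisons were fitted by limma 3.58.1 under R 4.3.3, with the functions lmFit and eBayes and two-sided p. The fits covered all 16204 probesets with Benjamini-Hochberg adjustment, using only the arrays compared, or all 31 for the interaction. The procedure was also run on simulated data, with noise drawn for each probeset separately and no RNA quality gap between phenotypes. That run thus cannot tell whether the calls in these data hold. AU-act and AI-act share their rats with the comparisons by task. Members, gene lists and tests were chosen with earlier results of these data known. Named genes were Cd2bp2, Puf60, every called member, the 3 members of each family with the smallest adjusted p at the brightest probeset, the 3 with the smallest unadjusted p in comparisons without calls, and the 5 such genes of the other list. Alternatives were a limit of 6, centring, quantile normalization, a trended robust prior, SAM with 100 permutations and a replicate block. Others were control covariates, dentate and CA1 marker covariates, 1 fit over 4 groups, a task term and leaving out each array. Python 3.11 with matplotlib 3.10.9 drew the figures.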

Additional observations from a re-analysis of the deposited data

Results flagged for a closer look

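In 12 of 112 groups looked at (28 named probesets in 4 groups), 1 rat lay far from the rest of its group on the log2 scale, by a test that flags about 1 group in 20 by chance. Of the called probesets, this held for Rbm18 at 1393569_at, where AI-NS 8 was at 8.82 and the nearest rat at 9.16. Among SR and hnRNP genes, Srsf11 was at 12.55 in AU-NS 1 (nearest 12.36), Hnrnpa3 at 12.51 in AU-S 1 (nearest 12.32) and Hnrnpm at 10.04 in AI-S 7 (nearest 9.86). In the SF3b genes, AI-NS 1 was at 10.60 for Sf3b2 (nearest 10.85), AI-NS 4 at 9.64 for Sf3b3 (nearest 9.38) and AI-NS 3 at 11.05 for Sf3b6 (nearest 10.85). Prpf39 was at 11.63 in AU-NS 1 (nearest 11.33) and Prpf38b at 9.48 in AI-NS 4 (nearest 9.36). Rbm10 was at 9.93 in AU-S 5 (nearest 9.61), Rbm11 at 7.55 in AU-NS 5 (nearest 7.17) and Puf60 at 10.84 in AI-S 5 (nearest 11.03).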

How the results depend on the processing

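Dentate and CA1 scores served as marker covariates, and the neuron and CA3 scores, which were higher in AU-act, were not used. With the tasks pooled, a limit of 6, a trended robust prior, marker covariates and a task term kept the same 7 genes called at any probeset. Centring and quantile normalization kept 5 of them and lost Srsf1 and Hnrnpab, so that at the brightest probeset 0 were called after centring and 1, Prpf39 and lower, after quantile normalization. They also took the share of positive differences from 60.5% to 51.2% and 45.4%, and that of all genes from 51.7% to 45.0% and 42.9%. SAM called 4 at the brightest (3 higher, 1 lower) and 11 at any probeset (10 higher, 1 lower), while its calls on the whole array were 1122 higher and 199 lower against 810 and 83 by limma, and the control covariate gave 0 at both. Other splicing genes numbered 2 after centring, quantile normalization and SAM, and 0 with the control covariate. After the spatial task the count at any probeset was 1 after centring and with the control covariate, Rbm18 being lost, and 0 with marker covariates. After the non-spatial task SAM called 1 at the brightest and 1 at any probeset, and the control covariate turned Cd2bp2 at 1372036_at to 0.018 and Puf60 to -0.086, neither of which was called. The cause was not tested in any of these.

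Leaving out 1 array gave pooled counts of 0 (without AI-NS 1, AI-NS 8, AU-NS 2, AI-S 3, AI-S 6, AU-S 3, AU-S 4 or AU-S 5) to 3 (without AI-S 1 or AI-S 7) at the brightest probeset, 4 (without AU-NS 2) to 11 (without AI-S 7) at any, and 1 to 2 (without AI-NS 3, AI-NS 4 or AI-S 1) for the other splicing genes. The spatial count at any probeset was 1 to 3 (3 without AI-S 7), and other counts of members stayed at 0. Calls over the whole array moved more: in the spatial comparison they ran from 5 (without AI-S 6 or AU-S 3) to 448 (without AI-S 7) against 63 higher and 4 lower with all arrays, and in the non-spatial one 208 were called without AI-NS 3, so the shares of all genes called within a task depend on single arrays. Replicate numbers were shared between groups, and the labels do not say what they mean. Over 45 pairs of arrays with the same number, correlations of deviations ran from -0.466 to 0.311, and 7 exceeded 0.1. Pairs with unlike numbers were not read for comparison, so whether the numbers pair the samples was not settled. With the replicate number as a block, 0 members were called at the brightest and 3 at any probeset with the tasks pooled (Cd2bp2, Hnrnpa2b1 and Rbm18), and 1 after the spatial task. Standard errors were near 0.07 within a task, and differences well above that did not always pass, as for Hnrnpab between AU-NS and AI-NS. A gene without a call within a task may thus still differ.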
